A study of Mus musculus with 4 samples.

Results

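Young Müller glia sorted from the mouse retina at postnatal day 8 (P8 MG) were set against retinal progenitor cells sorted at postnatal day 2 (P2 RPC), by the counts of 566 mouse miRNA probes on a nanoString nCounter panel of 626 probes. These are 2 of the 4 libraries in the series, and all 566 mouse miRNA probes were kept as members. P8 MG carried a tdTomato reporter switched on by Rlbp-driven Cre after 75 mg/kg tamoxifen on days 6 and 7, and their sorts came from 52 retinas pooled into 1 library. P2 RPC carried the same reporter switched on by Sox2-driven Cre after the same dose on days 0 and 1, and their sorts came from 8 retinas pooled into 1 library. The series text names both Cre lines as tamoxifen-inducible and the reporter as a stop-floxed tdTomato allele, which both groups carried. The same text calls the progenitors adult in one place, whereas every label of that sample gives postnatal day 2, and the label is used here. Rlbp1 is also expressed in retinal pigment epithelium, and Sox2 is also expressed in glia and some amacrine neurons, so each label marks a driver's activity and not 1 cell type alone. Cre line, cell type, age, days of tamoxifen, number of retinas and assay lane all differ between the libraries and cannot be told apart, and since each group was a single library, no p-value is given.

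Müller glia are the last cell class that retinal progenitors produce, and they keep many progenitor genes while leaving the cell cycle. miRNAs are short RNAs that lower the output of transcripts matching their seed, the stretch from base 2 to base 8, so miRNAs with 1 seed form a family with overlapping targets. Families known from dividing cells (miR-17, miR-19, miR-25, miR-130) and families known from maturing cells (let-7, miR-99/100, miR-125) are both expressed in the developing retina. In the nCounter assay each mature miRNA is ligated to a tag through a matching bridge and counted by a coloured barcode. A probe's count reflects how well its own miRNA is ligated as well as how much is there, so shares and ranks compare probes with unequal efficiency, while the difference between the libraries is taken within each probe.

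The mature sequences below, from RefSeq (assembly GRCm38.p6), belong to the miRNAs on which the results turn, with the seed in capitals. They were matched by name, and 281 of the 566 probes and 130 of the 229 probes above background in either library had an entry. The first set holds the miRNAs that gained most in P8 MG, and beside them miR-99b, miR-125a-5p and let-7g, which share a seed with some of these and were not called.
miR-9: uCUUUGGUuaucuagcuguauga
miR-204: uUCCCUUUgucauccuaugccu
miR-99a: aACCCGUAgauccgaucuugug
miR-100: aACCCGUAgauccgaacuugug
miR-99b: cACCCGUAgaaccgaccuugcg
miR-125b-5p: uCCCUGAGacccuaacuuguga
miR-125a-5p: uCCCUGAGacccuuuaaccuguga
let-7b: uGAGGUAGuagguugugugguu
let-7c: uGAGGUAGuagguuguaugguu
let-7g: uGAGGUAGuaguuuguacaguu

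The second set lost most in P8 MG, except miR-322, which carries the seed of miR-15b and miR-16 and was higher.
miR-16: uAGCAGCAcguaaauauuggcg
miR-15b: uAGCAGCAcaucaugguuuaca
miR-322: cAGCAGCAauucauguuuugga
miR-20a: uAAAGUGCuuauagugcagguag
miR-17: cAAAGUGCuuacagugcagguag
miR-25: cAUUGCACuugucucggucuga
miR-19a: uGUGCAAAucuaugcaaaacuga
miR-301a: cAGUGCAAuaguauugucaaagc
miR-96: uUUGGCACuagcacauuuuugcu

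The last set was at background in 1 of the libraries, miR-146a and miR-142-3p in P2 RPC and miR-218 in P8 MG.
miR-146a: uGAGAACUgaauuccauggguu
miR-142-3p: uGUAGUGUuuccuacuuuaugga
miR-218: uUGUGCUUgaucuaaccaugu

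Of these, miR-99a lies at chr16:77598940-77598961 (plus strand) and miR-100 at chr9:41531437-41531458 (plus strand), and miR-99b lies at chr17:17830194-17830215 (plus strand). miR-204 lies at chr19:22750610-22750631 (plus strand) within the span of Trpm3, and miR-25 at chr5:138165332-138165353 (minus strand) within the span of Mcm7, which encodes a subunit of the replicative helicase. miR-15b lies at chr3:69009775-69009796 (plus strand) within the span of Smc4, which encodes a condensin subunit, and miR-322 at chrX:53054306-53054327 (minus strand). The spans come from gene starts and ends and do not say whether a miRNA is exonic or intronic.

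The lanes were equally deep but differed in background. The P8 MG lane held 576117 counts, of which 470304 fell on mouse miRNA probes, and the P2 RPC lane held 583699, of which 482118 did. Background was set in each lane at the mean plus 2 SD of its 8 negative controls, which gave 137 raw counts in P8 MG and 60.7 in P2 RPC. The negative controls ranged from 20 to 114 counts in P8 MG and from 18 to 53 in P2 RPC. The 33 viral miRNA probes, which have no target in mouse cells without virus, ranged from 12 to 134 counts (median 82) in P8 MG and from 8 to 64 (median 39) in P2 RPC. Without any scaling, the P8 MG to P2 RPC ratio had a median of 1.66 over the viral probes (highest 3.50), of 1.86 over the negative controls (highest 3) and of 1.70 over the 337 miRNA probes at background in both lanes (highest 4.2). Signal without target was therefore higher in the P8 MG lane by a similar factor in the viral probes and the negative controls. The 337 miRNA probes may have target. They were chosen by the unequal thresholds of the 2 lanes, so their ratio is no separate measure of this. Above background stood 134 of the 566 probes in P8 MG and 220 in P2 RPC, with 125 above in both lanes, 9 in P8 MG alone and 95 in P2 RPC alone. Probes at or below background held 5.64% of miRNA counts in P8 MG and 2.13% in P2 RPC.

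In the 229 probes above background in either library, 29 miRNAs were at least 2-fold higher in P8 MG than in P2 RPC (12.7%) and 21 were at least 2-fold lower (9.17%), which together make 21.8%. Such a call also needed an exact conditional binomial 95% interval, taken on the 2 raw counts, that excluded equality, and this interval covers counting error only, as do all bracketed ranges below. Ratios were taken after scaling each lane on its positive controls and then on its 100 most abundant miRNA probes. Over the 125 probes above background in both libraries the median log2 ratio was -0.00, with 62 positive and 63 negative values, so the scaling placed the middle of the measured miRNAs at no difference. Of the calls, 20 in each direction were measured in both libraries, and the remaining 9 higher and 1 lower are bounds against background. The split depended on the scaling. It was 35 higher and 16 lower when scaled on the top 50 probes or on the ligation controls, 29 and 21 on total counts, 24 and 28 on positive controls alone, 16 and 41 on the summed housekeeping mRNAs, 14 and 41 on edgeR's TMM factors, and 8 and 84 on the geometric mean of the housekeeping mRNAs. Relative to the main scaling these moved all log2 ratios by 0.19, 0.22, 0.00, -0.21, -0.47, -0.55 and -1.03 for the top 50, ligation, total, positive, summed housekeeping, TMM and housekeeping settings. Calls that held whatever the scaling numbered 8 on the higher side and 16 on the lower. The 8 were miR-100, miR-99a, miR-125b-5p, miR-22, miR-2141, miR-146a, miR-142-3p and miR-804.

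**Figure D1:**
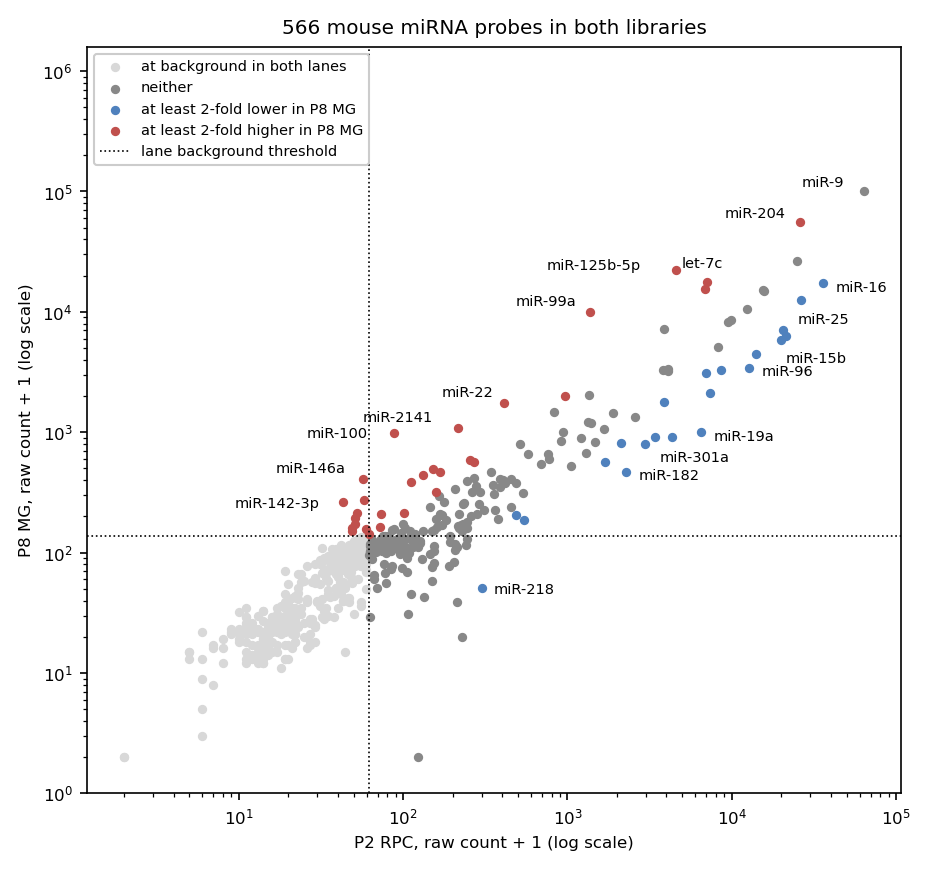
Raw counts plus 1 of all 566 mouse miRNA probes in P8 MG (vertical axis) against P2 RPC (horizontal axis), both on log scales; each point is 1 probe, red and blue points were at least 2-fold higher or lower in P8 MG after scaling, and dotted lines are the background thresholds of 137 and 60.7 counts. miR-100 and miR-99a lie far above the run of points, and miR-19a, miR-182 and miR-301a far below it.

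The miRNA pool of P8 MG was more concentrated at its top. miR-9, a miRNA of neural progenitors and neurons, was the most abundant in both libraries, with 21.4% of miRNA counts (100674 raw counts, interval 21.3 to 21.5%) in P8 MG and 13.3% (63981 raw counts, 13.2 to 13.4%) in P2 RPC. The 5 most abundant probes held 47.4% in P8 MG and 36.8% in P2 RPC, and the 20 most abundant held 79.0% in P8 MG and 76.2% in P2 RPC. It took 6 probes to reach 50% of the counts in P8 MG, against 9 in P2 RPC. Lower down the order was the reverse, since 90% of the counts took 56 probes in P8 MG against 42 in P2 RPC. The part of the P8 MG lane's higher background in this was not tested.

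In all, 30.2 percentage points of the pool lay with different probes in the 2 libraries. Share was gained in P8 MG by 422 probes and lost by 144. These counts and the 30.2 points include the 337 probes at background in both lanes, whose unscaled ratio had a median of 1.70. They are thus not counts of changed miRNAs. The largest gains were held by few miRNAs: miR-9 and miR-204 accounted for 14.6 points, and with miR-125b-5p, let-7c and let-7b for 22.5 points. The 5 largest losses came to 15.4 points, and it took the 10 largest to reach 22.5. Those 10 were miR-16, miR-20a with miR-20b (1 probe), miR-15b, miR-720, miR-25, miR-106a with miR-17 (1 probe), miR-96, miR-19a, miR-15a and miR-183. All but miR-720, whose sequence is known as a tRNA fragment, belong to the families miR-15/16, miR-17, miR-19 and miR-25/92 or to the miR-183 cluster.

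By family, 27 families with 72 probes held 85.2% of miRNA counts in P8 MG and 83.7% in P2 RPC. Larger shares in P8 MG were those of miR-9, let-7, miR-204, miR-125 and miR-99/100, and smaller ones those of miR-15/16, miR-17, miR-25/92, miR-130 and miR-19. A share sets a family against the rest of its own lane, so the scaling does not enter it, and a larger share of some families lowers that of all others.

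**Figure D2:**
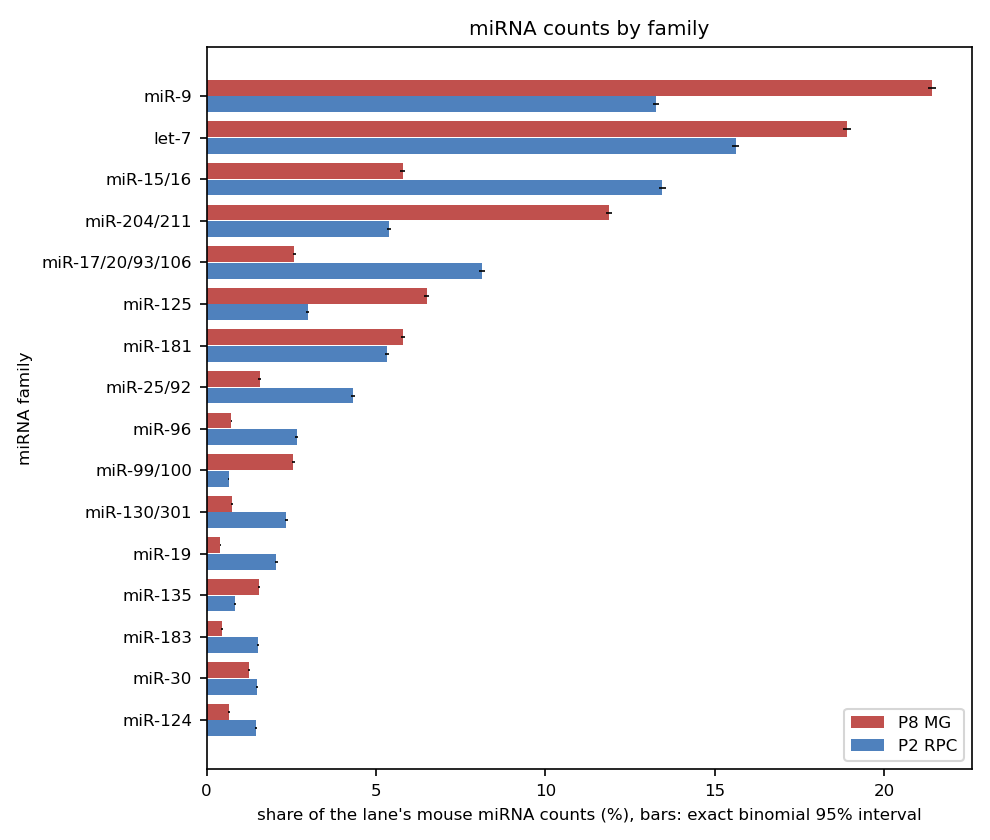
Share of each lane's mouse miRNA counts, in percent, for 16 families; red bars are P8 MG and blue bars P2 RPC, with exact binomial 95% intervals as error bars. miR-9 stands at 21.4% in P8 MG and 13.3% in P2 RPC, and the miR-15/16 family at 5.79% in P8 MG and 13.5% in P2 RPC.

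Among the families with larger shares, the miR-204 family (with miR-211) held 11.9% in P8 MG and 5.39% in P2 RPC, a ratio of 2.21. miR-204, abundant in retinal pigment epithelium and in glia, supplied nearly all of it with 55841 raw counts in P8 MG and 25967 in P2 RPC, and its relative miR-211 was at background in both lanes, with 70 and 18 counts. After scaling miR-204 was 2.20-fold higher (2.17 to 2.23) in P8 MG, and it passed the 2-fold threshold in 4 of the 8 scalings. miR-9 was 1.61-fold higher (1.59 to 1.63), under the threshold, and its log2 ratio lay between -0.34 and 0.91 over the scalings, negative on the housekeeping mRNAs. miR-135a, at 7196 raw counts in P8 MG and 3862 in P2 RPC, was just short of a call with a ratio of 1.91 (1.83 to 1.98).

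Of the families with more than 1 member, miR-99/100 had the steepest gain in share, at 2.55% in P8 MG and 0.649% in P2 RPC, a ratio of 3.93, and its 3 members did not move together. miR-99a had 9970 raw counts in P8 MG and 1375 in P2 RPC, a ratio of 7.42 (7.01 to 7.86). miR-100 had 978 in P8 MG and 87 in P2 RPC, with the P2 RPC count only a little above that lane's background, a ratio of 11.5 (9.23 to 14.5). Its size rests on that low count, since the log2 ratio was 3.52 as given, 4.18 with the negative-control mean subtracted and 5.47 in the authors' deposited table. miR-99b, with the same seed, had 1061 raw counts in P8 MG and 1669 in P2 RPC and a log2 ratio of -0.62. As a result miR-99a and miR-100 made up 91.2% (90.6 to 91.7%) of the family's counts in P8 MG, against 46.7% (44.9 to 48.5%) in P2 RPC.

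The miR-125 family, homologous to the worm lin-4 miRNA and known to accumulate as neural cells mature, was divided in the same way. Its share was 6.50% in P8 MG and 2.98% in P2 RPC. miR-125b-5p had 22081 raw counts in P8 MG and 4547 in P2 RPC, a ratio of 4.97 (4.81 to 5.13). miR-125a-5p had 8497 raw counts in P8 MG and 9841 in P2 RPC, with a log2 ratio of -0.18. miR-125b-5p therefore made up 72.2% (71.7 to 72.7%) of the 5p counts of the family in P8 MG and 31.6% (30.8 to 32.4%) in P2 RPC. The 3p probes gave a contrast of the same direction. miR-125b-3p had 192 raw counts in P8 MG and 50, at background, in P2 RPC, so its ratio is only a bound. miR-125a-3p had 252 in P8 MG and 231 in P2 RPC.

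let-7, which accumulates in maturing cells of many animals, was the other large family, at 18.9% (18.79 to 19.02%) in P8 MG and 15.6% (15.5 to 15.7%) in P2 RPC, a ratio of 1.21. All 9 members were above background in both libraries, and 2 of them were called, each in 5 of 8 scalings and on neither of the housekeeping scalings nor TMM. let-7c had 17538 raw counts in P8 MG and 7030 in P2 RPC, a ratio of 2.55 (2.48 to 2.63), and let-7b had 15605 in P8 MG and 6889 in P2 RPC, a ratio of 2.32 (2.25 to 2.39). The log2 ratios of the other 7 lay between -0.31 (let-7e) and 0.12 (miR-98), a range whose sign the scaling sets. let-7g, the most abundant member in P2 RPC, had 14952 raw counts in P8 MG and 15750 in P2 RPC, and let-7d had 15155 in P8 MG and 15516 in P2 RPC. let-7b and let-7c together made up 37.3% (37.0 to 37.6%) of the family's counts in P8 MG and 18.5% (18.2 to 18.8%) in P2 RPC. The members of this family are close in sequence, and how much of one is read by another's probe was not tested.

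**Figure D3:**
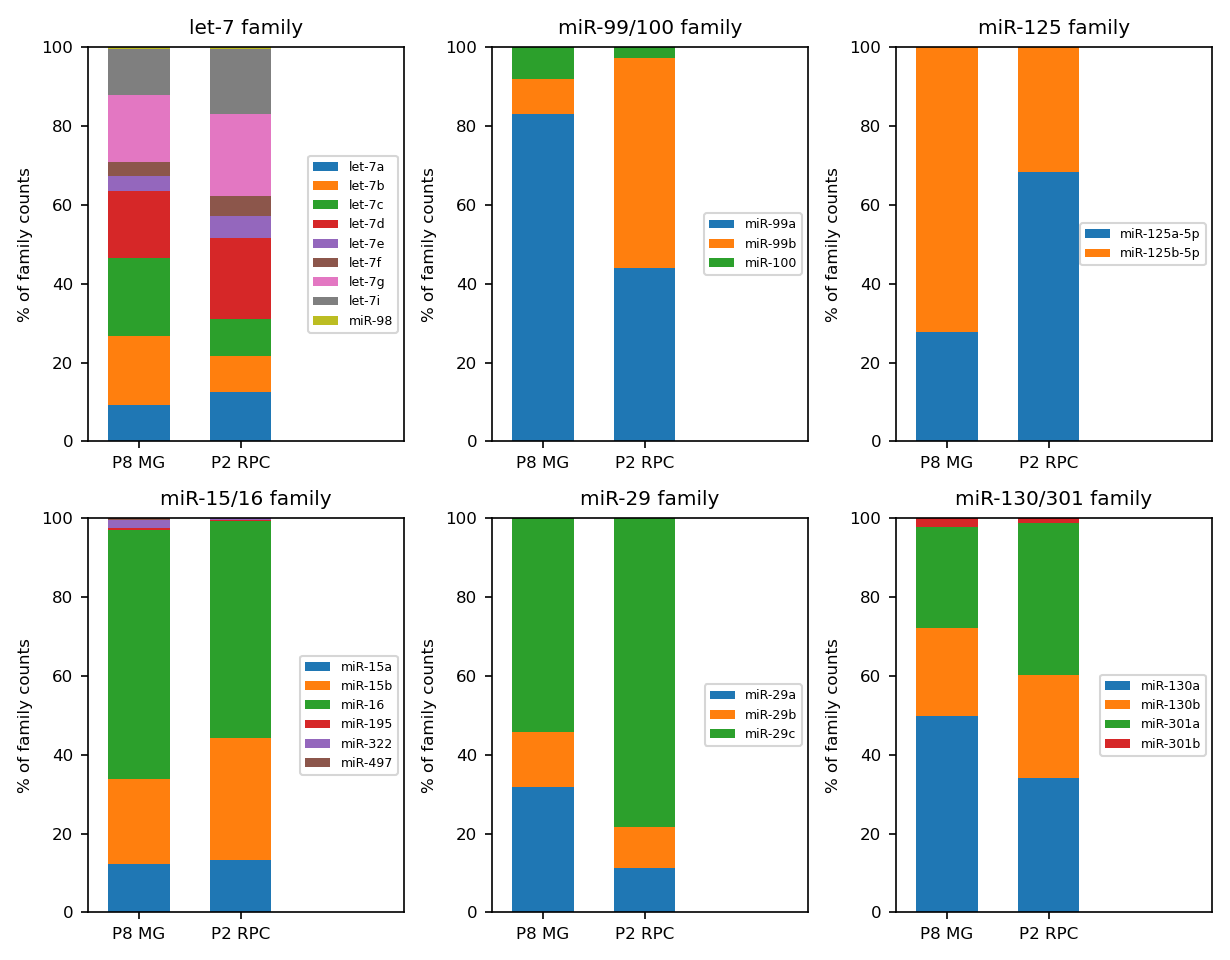
Make-up of 6 miRNA families in percent of the family's own counts, with P8 MG in the left bar and P2 RPC in the right bar of each panel and 1 colour per probe. miR-99a and miR-100 fill 91.2% of their family in P8 MG and 46.7% in P2 RPC, and miR-125b-5p fills 72.2% of its family in P8 MG and 31.6% in P2 RPC.

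Smaller families known from differentiated cells were higher in part of their members. In the miR-29 family, whose targets include collagens, miR-29a had 385 raw counts in P8 MG and 110 in P2 RPC, a ratio of 3.58 (2.89 to 4.47). miR-29c had 657 in P8 MG and 760 in P2 RPC, and its log2 ratio was -0.18. Among miR-29a and miR-29c, miR-29a made up 36.9% (34.0 to 40.0%) in P8 MG and 12.6% (10.51 to 15.04%) in P2 RPC. In the miR-23a/27a/24-2 cluster 2 of 3 probes were higher, miR-23a at 566 raw counts in P8 MG and 268 in P2 RPC and miR-24 at 162 in P8 MG and 71 in P2 RPC, while miR-27a had a ratio of 1.59 (1.42 to 1.78). miR-23a was called in 4 of 8 scalings and miR-24 in 5, and miR-24 was no longer above background in P8 MG at 3 SD. miR-22, a broadly expressed miRNA of differentiated cells, had 1754 raw counts in P8 MG and 412 in P2 RPC, a ratio of 4.36 (3.91 to 4.86). miR-210, which is induced in hypoxia, had 2010 in P8 MG and 964 in P2 RPC, a ratio of 2.13 (1.97 to 2.31) that was called in 4 of 8 scalings. No member of the miR-30 family (5 probes) or the miR-181 family (3 probes) was called, and miR-30 log2 ratios lay between -0.33 and -0.10. miR-181a, which ranked high in both libraries, had 26599 raw counts in P8 MG and 25080 in P2 RPC.

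Among the families with smaller shares, the miR-17 family of 4 probes (miR-17 with miR-106a, miR-20a with miR-20b, miR-93 and miR-106b), long known from proliferating cells, held 2.58% in P8 MG and 8.13% in P2 RPC, 3.15-fold lower, and all 4 were called lower under all 8 scalings. The joint probe for miR-20a with miR-20b had 6251 raw counts in P8 MG and 21395 in P2 RPC, 3.34-fold lower (3.25 to 3.44). That for miR-17 with miR-106a had 4507 in P8 MG and 13999 in P2 RPC, 3.04-fold lower (2.94 to 3.14). The members cannot be told apart within these shared probes. Log2 ratios over the 4 lay between -1.74 and -1.33, a narrow span beside the families above.

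The miR-19 family had the steepest loss, at 0.406% in P8 MG and 2.05% in P2 RPC, 5.06-fold lower. miR-19a had 999 raw counts in P8 MG and 6501 in P2 RPC, 6.36-fold lower (5.95 to 6.80), the largest measured decrease of any probe. miR-19b had 912 in P8 MG and 3405 in P2 RPC, 3.65-fold lower (3.39 to 3.93). miR-19b, which 2 genome loci can supply, made up 47.7% (45.46 to 49.99%) of the pair in P8 MG and 34.4% (33.4 to 35.3%) in P2 RPC. Of the miR-17/92 cluster, miR-18a and miR-92a were at background in P8 MG, with 38 and 28 raw counts, against 213 and 62 in P2 RPC.

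The miR-25/92 family held 1.57% in P8 MG and 4.33% in P2 RPC, 2.77-fold lower, and miR-25 supplied nearly all of it, with 7005 raw counts in P8 MG and 20511 in P2 RPC. Its cluster partners miR-93 and miR-106b were lower by a like amount, and the 3 log2 ratios lay between -1.56 and -1.33. The miR-130 family (with miR-301) held 0.754% in P8 MG and 2.35% in P2 RPC. Within it miR-301a had 908 raw counts in P8 MG and 4339 in P2 RPC, 4.67-fold lower (4.35 to 5.02), and miR-130b had 792 in P8 MG and 2976 in P2 RPC, 3.67-fold lower (3.39 to 3.98). miR-130a was nearer the threshold, with 1766 in P8 MG and 3847 in P2 RPC, 2.13-fold lower (2.01 to 2.25), and it made up 51.0% (49.3 to 52.6%) of the 3 measured members in P8 MG and 34.5% (33.6 to 35.4%) in P2 RPC.

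The miR-15/16 family, whose known targets include cyclins, lost the most in percentage points, with 5.79% in P8 MG and 13.5% in P2 RPC, 2.33-fold lower. miR-16 had 17228 raw counts in P8 MG and 35845 in P2 RPC, 2.03-fold lower (1.997 to 2.071), and miR-15b had 5859 in P8 MG and 20032 in P2 RPC, 3.34-fold lower (3.25 to 3.44). miR-15a had 3318 in P8 MG and 8593 in P2 RPC, 2.53-fold lower (2.43 to 2.63). miR-322, the mouse counterpart of human miR-424, went the other way with 591 in P8 MG and 254 in P2 RPC, a ratio of 2.38 (2.05 to 2.77), positive under all 8 scalings and past the threshold in 5. Its part of this seed group was 2.19% (2.02 to 2.37%) in P8 MG and 0.392% (0.346 to 0.444%) in P2 RPC. The further relatives miR-195 and miR-497 were at background in P8 MG, and miR-195 had 112 raw counts there and 94 in P2 RPC. Seeds were compared only over probes above background in either library that had a sequence entry. Among the 16 seeds that matched more than 1 such probe, that of miR-15b and miR-16 was the 1 seed with calls in both directions. All matched probes were lower for 3 seeds, and none had all matched probes higher. These 3 include the seed of miR-130a, miR-130b and miR-301a. Their family member miR-301b had no matched sequence. It was above background in P2 RPC alone and was not called.

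The photoreceptor and sensory miR-183 cluster was lower in all 3 members, and remained well above background in P8 MG. miR-96 had 3445 raw counts in P8 MG and 12811 in P2 RPC, 3.63-fold lower (3.50 to 3.78). miR-183 had 2111 in P8 MG and 7352 in P2 RPC, 3.40-fold lower (3.24 to 3.57), and miR-182 had 470 in P8 MG and 2267 in P2 RPC, 4.71-fold lower (4.27 to 5.22). miR-124, the classical neuronal miRNA and one of those named in the series title, had 3117 raw counts in P8 MG and 7015 in P2 RPC, 2.20-fold lower (2.11 to 2.30), a call in 6 of 8 scalings. miR-374 had 184 in P8 MG and 546 in P2 RPC, 2.90-fold lower (2.45 to 3.45), and miR-107 had 204 in P8 MG and 488 in P2 RPC, 2.34-fold lower (1.98 to 2.77).

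Clustered miRNAs, which can be cut from 1 primary transcript, gave a further view of the gains. All 3 probes of the miR-99a/let-7c/miR-125b-2 cluster were higher in P8 MG, and together they held 10.5% there and 2.69% in P2 RPC. In the related miR-100/let-7a-2/miR-125b-1 cluster 2 of 3 were higher, the exception being let-7a with a log2 ratio of -0.17. In the related miR-99b/let-7e/miR-125a cluster none of 4 was called, with log2 ratios between -0.62 and 0.16, and they held 2.77% in P8 MG and 3.28% in P2 RPC. let-7c, miR-125b and let-7a each come from more than 1 locus and are counted in each of these clusters that holds them, so these counts are not separate. let-7c also lies beside let-7b on chromosome 15, where both were higher. let-7a also lies beside let-7d and let-7f on chromosome 13, where none was called. A probe's count cannot be divided among its loci.

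The order of the miRNAs was largely kept. Over the 125 probes above background in both libraries the Spearman correlation of the raw counts was 0.867, across miRNAs that share 2 lanes and are not replicates. The median change was 10 places, 41 probes stayed within 5 places and 24 moved by more than 20. Of the 10 most abundant in each library 7 were shared. let-7b, let-7c and miR-125b-5p were in the top 10 of P8 MG alone, and miR-15b, miR-25 and the joint miR-20a with miR-20b probe in that of P2 RPC alone. Of the 20 most abundant 16 were shared, with let-7b, miR-125b-5p, miR-135a and miR-99a in P8 MG alone and miR-124, miR-15a, miR-183 and miR-96 in P2 RPC alone.

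**Figure D4:**
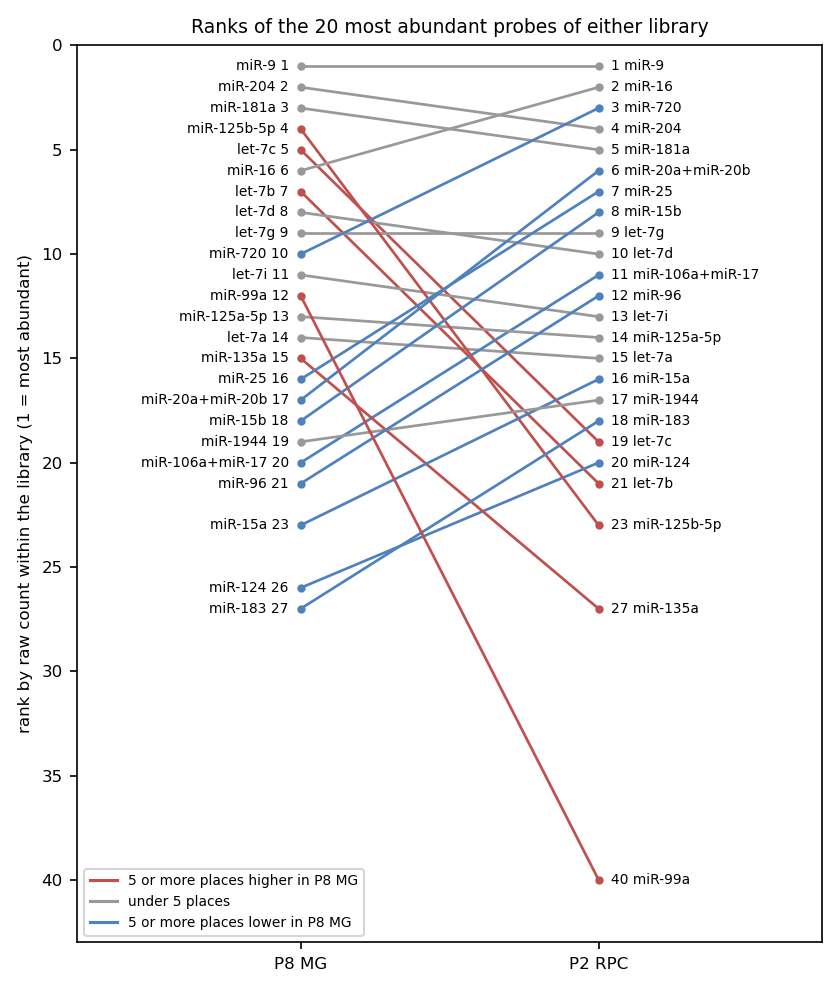
Rank by raw count among all 566 probes for each probe in the top 20 of either library, with P8 MG on the left and P2 RPC on the right; lines join the same probe, red where it stood 5 or more places nearer the top in P8 MG and blue where it stood 5 or more places lower. miR-99a was at rank 12 in P8 MG and 40 in P2 RPC, and miR-125b-5p at rank 4 in P8 MG and 23 in P2 RPC.

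Among the 125 probes, miR-100 had the largest difference in rank, at place 41 in P8 MG and 120 in P2 RPC, 79 places nearer the top. Next came miR-2141 with 54 places, miR-129-3p with 47, miR-709 with 46, miR-29a with 44, miR-1224 with 39, miR-22 and miR-2140 with 31 each, miR-99a with 28 and miR-335-3p with 27. miR-2141 had 1088 raw counts in P8 MG and 215 in P2 RPC, a ratio of 5.18 (4.47 to 6.02). miR-129-3p, a neuronal miRNA, had 497 in P8 MG and 151 in P2 RPC, a ratio of 3.37 (2.80 to 4.07). miR-709 had 441 in P8 MG and 131 in P2 RPC, a ratio of 3.44 (2.83 to 4.22), and miR-1224 had 467 in P8 MG and 166 in P2 RPC, a ratio of 2.88 (2.41 to 3.46). Without scaling, the ratios of miR-129-3p, miR-709 and miR-1224 were 3.29, 3.37 and 2.81, within the range reached by viral probes (up to 3.50), while that of miR-2141 was 5.06. In the whole set of 29 higher calls, 10 lay above that range and 19 within it. The range comes from viral probes with at most 134 raw counts in P8 MG, so it says little about abundant probes. The 19 include such probes, miR-204, let-7c and let-7b among them. Their log2 ratios were 1.1377, 1.352 and 1.2127, and 1.1379, 1.3535 and 1.2137 with the negative-control mean subtracted.

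In the other direction miR-374 stood 48 places lower in P8 MG, at place 102 against 54 in P2 RPC. It was followed by miR-107 with 38 places, miR-1196 with 34, miR-466g with 33, miR-423-5p with 31, miR-149 and miR-182 with 27 each, miR-1186 with 24 and miR-345-5p and miR-296-5p with 22 each. Only miR-374, miR-107 and miR-182 of these 10 were called lower. The other 7 had between 149 and 309 raw counts in P8 MG, against its background of 137.

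Switched on is used here for a miRNA above background in P8 MG, at background in P2 RPC and at least 2-fold higher than the P2 RPC background after scaling. It describes counts and not transcription. There were 9 such miRNAs (3.93% of 229). miR-146a, an immune and NF-kB-induced miRNA, had 407 raw counts in P8 MG and 56 in P2 RPC, at least 6.86-fold higher. miR-804 had 270 in P8 MG and 57 in P2 RPC, at least 4.55-fold higher, and miR-142-3p, a miRNA of blood-derived cells, had 262 in P8 MG and 42 in P2 RPC, at least 4.42-fold higher. These 3 were called under all 8 scalings. miR-2135 had 213 in P8 MG and 51 in P2 RPC, at least 3.59-fold higher, and miR-125b-3p was at least 3.24-fold higher, both in 7 of 8 scalings. The other 4 were weaker. miR-150, known from lymphocytes, had 173 raw counts in P8 MG and 50 in P2 RPC, at least 2.92-fold higher. miR-764-5p had 160 in P8 MG and 48 in P2 RPC, miR-505 had 156 in P8 MG and 58 in P2 RPC, and miR-129-5p had 150 in P8 MG and 48 in P2 RPC. Their bounds were 2.70, 2.63 and 2.53, and each was called in 5 of 8 scalings. All 9 had fewer than 3 times the background count in P8 MG, and the unscaled ratios of these last 4 lay within the range of the viral probes, while those of the first 5 lay above it. Over the 337 miRNA probes at background in both lanes the unscaled ratio reached 4.2. That highest value is of miR-450a-3p, with 21 raw counts in P8 MG and 5 in P2 RPC, so it rests on few counts. Within that wider range lay miR-2135 (4.18) and miR-125b-3p (3.84), and above it miR-146a, miR-142-3p and miR-804.

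**Figure D5:**
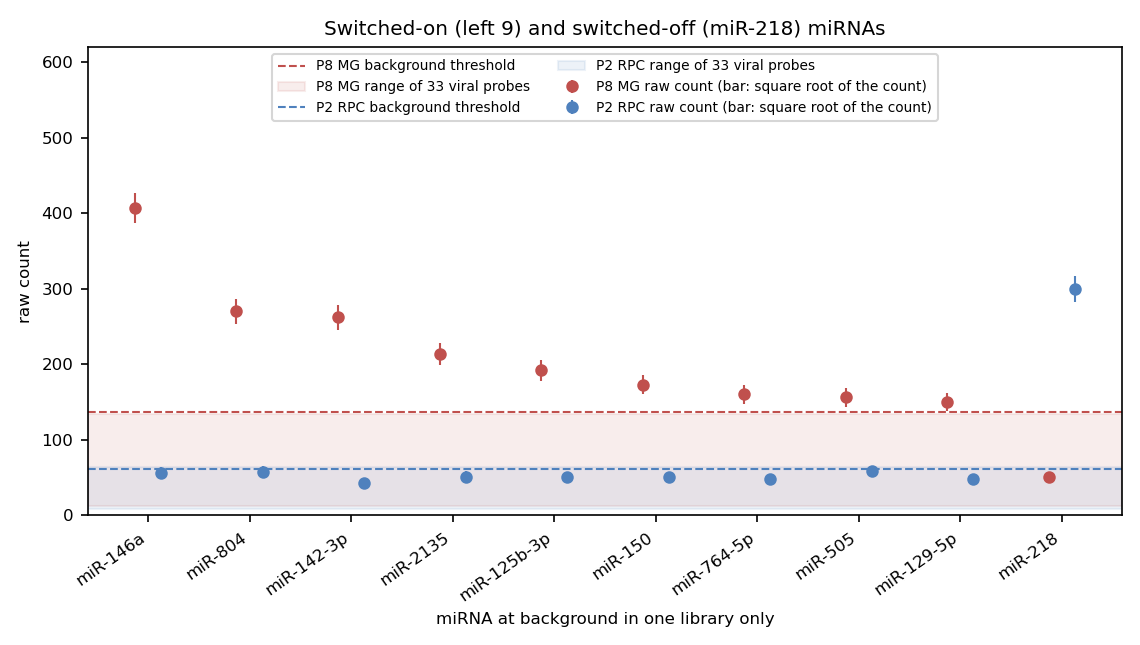
Raw counts of the 9 switched-on miRNAs and of miR-218 in P8 MG (red, left of each pair) and P2 RPC (blue, right), with bars of plus and minus the square root of the count; dashed lines are the background thresholds of 137 and 60.7 counts and shaded bands the ranges of the 33 viral probes. miR-146a stands at 407 counts in P8 MG, and miR-129-5p at 150, close to the P8 MG threshold.

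The same probes in the later glial libraries gave different courses. At P8, P11 and the adult stage miR-125b-3p had 192, 215 and 500 raw counts, and miR-505 had 156, 139 and 160 in that order. miR-146a had 407, 576 and 125, miR-142-3p had 262, 205 and 73, and miR-804 had 270, 116 and 41. miR-2135 had 213, 128 and 24, miR-150 had 173, 119 and 145, miR-764-5p had 160, 85 and 57, and miR-129-5p had 150, 98 and 69. These are raw counts from lanes of unequal depth, with 470304, 484305 and 695390 miRNA counts at P8, P11 and the adult stage. Background fell in the same order. After scaling miR-505 stood at 144, 151 and 184 and miR-150 at 160, 129 and 166. The other listed miRNAs kept the order of their raw counts. In the adult lane miR-804, miR-2135, miR-764-5p and miR-129-5p were below background and miR-142-3p only just above it. The late values of these miRNAs are thus set largely by that floor. miR-764-5p and miR-129-5p were below background at P11 as well. The P11 and adult values were not used to choose these probes.

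Switched off, the converse, held for miR-218 alone (0.437% of 229). miR-218, best known from motor neurons, had 50 raw counts in P8 MG and 299 in P2 RPC, at least 2.13-fold lower, a call in 6 of 8 scalings. The background of the P8 MG lane limits this count. A further 94 miRNAs were above background in P2 RPC alone, with 61 to 244 raw counts there, and the P8 MG background of 137 left them undecided. For 17 of them the P2 RPC level exceeded the P8 MG background by less than 2-fold, and for 77 it did not exceed it, so no bound could be given. The nearest were miR-495 with 128 raw counts in P8 MG and 244 in P2 RPC, and miR-138, a neuronal miRNA, with 115 in P8 MG and 241 in P2 RPC. Several of the 94 lay below the P8 MG negative-control mean of 70.5. Among them were miR-216b, with 19 raw counts in P8 MG and 228 in P2 RPC, and miR-18a, yet their bounds were 1.62-fold and 1.52-fold. Another was miR-543, with 1 in P8 MG and 122 in P2 RPC, for which no bound could be given. All 95 miRNAs above background in P2 RPC alone had a median of 85 raw counts there and together held 2.09% of its counts.

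miRNA lists for cell types were chosen with earlier results of these data known, and they largely hold miRNAs described above. Their values are therefore no independent check of the labelled cell types. Counts of calls on the lists stand beside 12.7% higher and 9.17% lower over all 229 probes. All 8 miRNAs on the Müller glia list were above background in both libraries. They held 49.3% of counts in P8 MG and 27.9% in P2 RPC, with 4 of 8 higher (miR-204, miR-125b-5p, miR-99a and miR-100). Of the 9 listed for cycling progenitors all 9 were above background in P2 RPC and 7 in P8 MG, and 7 were lower in P8 MG, where they held 4.49% against 14.5% in P2 RPC. The 3 photoreceptor miRNAs held 1.28% in P8 MG and 4.65% in P2 RPC, and all were above background in both. Of 7 neuronal miRNAs 2 were higher (miR-129-3p, in 7 of 8 scalings, and miR-129-5p, in 5, which are the 2 arms of 1 miRNA) and 2 lower (miR-124 and miR-218), and they held 0.876% in P8 MG and 1.65% in P2 RPC.

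Some of the switched-on miRNAs are themselves markers of other cells. Of 6 miRNAs listed for microglia and white blood cells 4 were above background in either library. All 4 were higher in P8 MG, beside 12.7% of all 229 probes. Of these 4, 3 (miR-146a, miR-142-3p and miR-150) belong to the switched-on set and are among the 229 only through their P8 MG counts. The other, miR-142-5p, comes from the same hairpin as miR-142-3p. Setting this list against the 12.7% is therefore not a test. The list summed to 1224 raw counts (0.260%) in P8 MG and 328 (0.0680%) in P2 RPC, sums that include probes at background, which read higher in the P8 MG lane. miR-142-5p had 315 in P8 MG and 157 in P2 RPC, a ratio of 2.05 (1.69 to 2.50), called in 4 of 8 scalings. The remaining members were at background in both lanes, miR-223 with 66 counts in P8 MG and 22 in P2 RPC, and miR-155 with 1 in each. The part of other cells in the counts of miR-146a, miR-142 and miR-150 was not tested. All 3 red blood cell miRNAs were at background in both lanes (95 counts in all in P8 MG and 50 in P2 RPC). Of the 5 mural and mesenchymal miRNAs none was above background in P8 MG and 1 was in P2 RPC. The endothelial miR-126-3p had 462 raw counts in P8 MG and 340 in P2 RPC, a ratio of 1.39 (1.21 to 1.60), and no muscle or liver miRNA was called. In pooled cells, fewer cells of a type and less RNA per cell cannot be told apart.

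Near the 2-fold threshold the calls rested on small margins. Just inside were miR-16 (2.03-fold lower), miR-720 (2.05-fold lower) and miR-142-5p (2.05-fold higher), and just outside were miR-872 (1.95-fold lower), miR-1196 (1.93-fold lower) and miR-135a (1.91-fold higher). The housekeeping mRNAs on the panel, which some scalings use, did not move as 1: Actb had 11535 raw counts in P8 MG and 8497 in P2 RPC, Gapdh 1423 in P8 MG and 651 in P2 RPC, B2m 543 in P8 MG and 92 in P2 RPC, and Rpl19 1829 in P8 MG and 2047 in P2 RPC.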

How the data were processed

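miRNAs were counted on a nanoString nCounter mouse miRNA panel in sorted, pooled retinal cells, 1 library each of P8 MG and P2 RPC, with P11 MG and adult MG used only for the scaling and for the later values given. Per the labels' protocols, RNA was taken from pooled sorts with a micro-scale column kit. The deposited raw table holds whole-number counts per probe with no normalization, and no software is named in the labels or file headers. The deposited processed values are treated as a score: subtracting the negative-control mean plus 3 SD from the raw count, multiplying by a lane factor (0.771 in P8 MG and 1.03 in P2 RPC) and raising lower values to 1 gave 100% of them within 1 unit. They served only as an alternative. The raw counts were scaled by positive controls and then the 100 most abundant miRNA probes (factors 0.925 for P8 MG and 0.904 for P2 RPC). Where a library did not exceed background, its threshold took the place of its count and the ratio is a bound. Shares have exact (Clopper-Pearson) 95% intervals and ratios exact conditional binomial ones. These cover counting error only.

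The members, lists, clusters and naming rule were chosen with earlier results of these data known. The rule named the 15 most abundant miRNAs per library, up to 15 calls per direction with at least 3 times background, all switched miRNAs, up to 10 rank movers per direction, miR-25, miR-124, let-7, miR-720 and members of the listed families and clusters. miR-29a, miR-142-5p, miR-107, miR-18a, miR-195, miR-216b, miR-495 and the probes next to the threshold came from those lists or were singled out by value. The named lists had 1 probe per miRNA, and 9 probes named more than 1 miRNA. Sequences were matched by name and arm to RefSeq tables of GRCm38.p6. Python 3.11.15, scipy 1.17.1, pandas 2.3.3 and edgeR 4.0.16 (TMM factors only) were used, and the steps were tested on simulated counts with 200 changed probes. Alternatives were 7 other scalings, other background rules, fold thresholds of 1.5 and 3, leaving out probes miR-1894 to miR-1983, shares without background or without miR-720, and the deposited score.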

Additional observations from a re-analysis of the deposited data

Results flagged for a closer look

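Of the 33 viral miRNA probes, 4 stood above background in P2 RPC and 0 in P8 MG, which is a signal in probes that the comparison did not use. They were 3 probes of murine cytomegalovirus and 1 of murine gammaherpesvirus, with 62 to 64 raw counts in P2 RPC against a threshold of 60.7, and with 83 to 133 raw counts in P8 MG against a threshold of 137. In P2 RPC, 9 mouse miRNA probes counted as above background had 61 to 64 counts, the same level as these viral probes.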

How the results depend on the processing

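The 29 higher and 21 lower calls are counts at one setting. The higher count was 8 when scaled on the geometric mean of the housekeeping mRNAs, 16 on their sum and 14 on TMM factors. It was 45 with the highest negative control as background, 45 at a 1.5-fold threshold, 13 at 3-fold and 9 in the authors' deposited score. The lower count was 84, 41 and 41 on those 3 scalings, 37 at 1.5-fold, 10 at 3-fold and 51 in the deposited score. The 9 switched-on miRNAs became 3 on the housekeeping mRNAs, 5 on TMM factors and 15 with the highest negative control. The 1 switched-off miRNA became 0 on the top 50 probes, 0 on the ligation controls and 0 with background at 3 SD, 2 on positive controls alone, 18 on the housekeeping mRNAs, 9 on their sum and 9 on TMM factors, and 88 probes stood at the floor of the deposited score in P8 MG alone. For the scalings the cause is the shift of all log2 ratios given with them. For the other settings the cause was not tested.

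The shares of 8 families were recomputed and kept their direction under the alternatives tried, and the other families, miR-19, miR-130 and the miR-183 cluster among them, were not. The log2 ratio of the let-7 share was 0.28, and 0.32 with the negative-control mean subtracted, 0.33 over probes above background alone, 0.23 without miR-720 and 0.34 in the deposited score. In the same order miR-9 had 0.69, and 0.73, 0.74, 0.65 and 0.77, miR-204 with miR-211 had 1.14, and 1.19, 1.19, 1.10 and 1.22, and miR-125 had 1.12, and 1.17, 1.18, 1.08 and 1.20. miR-15/16 had -1.22, and -1.19, -1.18, -1.26 and -1.18. miR-99/100 had 1.98, with 2.045 after subtraction and 2.10 in the score. The miR-17 family had -1.66, with -1.60 over probes above background and -1.70 without miR-720, and miR-25/92 had -1.47, with -1.51 without miR-720. Where a ratio of a single called miRNA could be recomputed it did not reverse, and 508 values kept their side of the threshold while 73 fell below it. Not among these are 5 miRNAs (miR-24, miR-129-5p, miR-505, miR-764-5p and miR-1940) that were no longer above background at 3 SD and so lost their call, and 13 with no ratio in the deposited score because a library stood at its floor. Many of the 508 values could not change. Leaving out probes miR-1894 to miR-1983 kept the scaling, so its 49 values were the same as reported. Other background thresholds do not alter the ratio of a probe that stays above background in both lanes. At equal depth the lane's background limits the weak miRNAs: in P8 MG a count at or under 137 gives only a bound. No paired analysis was possible because each group was 1 library.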
